A study of Canis lupus familiaris with 29 samples.

Results

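A set of 10 genes that differed from wild type in the same direction in both DENND5A-KD and AVL9-KD cells is described here across 29 RNA-seq libraries of MDCKII, a dog kidney epithelial cell line. The members are EPAS1, VGLL3, FAM171B, DPP4, CYBRD1, MSC, DHRS2, TSPAN5, CHRM4 and PRR15L, taken by name from the 24223 genes in the files, and each name has 1 entry. They were picked because both knockdowns (KD) differed from wild type (WT) at day 0 or at 2D day 4, with no size or threshold given. The values of those 6 groups therefore chose the members, and every difference that involves those groups is given below as a description, without a test. Of the members, 7 were higher and 3 (TSPAN5, CHRM4 and PRR15L) were lower in both knockdowns at day 0.

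DENN domain proteins are known as exchange factors that switch on RAB GTPases, the small proteins that steer vesicle traffic between organelles and the cell surface. The members belong to no single pathway. EPAS1 encodes HIF-2 alpha, an oxygen-sensitive transcription factor that pairs with ARNT and is degraded through VHL when oxygen is plentiful. VGLL3 is a cofactor of TEAD transcription factors, and MSC (musculin) is a basic helix-loop-helix repressor. DPP4 is a dipeptidyl peptidase of the cell surface, well known on the brush border of kidney proximal tubules. CYBRD1 is a ferric reductase of the plasma membrane, and DHRS2 is a short-chain dehydrogenase/reductase. TSPAN5 is one of the tetraspanins that bring the protease ADAM10 to the cell surface, and CHRM4 is a muscarinic acetylcholine receptor coupled to inhibitory G proteins. FAM171B and PRR15L are proteins of unclear role.

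The groups were given by genotype, culture and time. DENND5A-KD cells were sampled at day 0, 2D day 4 and 2D day 7, with 2 libraries each, from samples numbered 1 and 2. AVL9-KD cells were sampled at day 0 and 2D day 4, with 2 libraries each, from samples numbered 1 and 4. These numbers are called lines here, and the labels do not say whether they mark clones, hairpins or guides. WT cells gave 4 libraries at day 0. Cysts of WT cells in 3D on matrigel gave 2 libraries each at 24 h and at days 3, 5 and 8, and 1 at day 14. Layers of WT cells in 2D on transwell inserts gave 3 libraries each at days 4 and 11. Day 0 means the cells used for seeding, and the 2D cultures were grown past confluence. All groups share the same cell line and medium. No control line carrying a knockdown construct without a target is among the samples, so the effect of a knockdown and that of making a line cannot be told apart. The labels do not say whether libraries of a group came from separate cultures, so p-values measure only the spread between these samples.

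Values are FPKM, a read count per length of transcript and per size of library, so levels can be compared between genes. Differences are of log2(FPKM + 1), with limma's standard error (SE) from a fit over all 29 libraries, and at low FPKM they come out smaller than the change in level. An FPKM of 0 can be a failed estimate, since 61 of the 5370 genes that averaged 10 FPKM or more were at 0 in some library. Such values are written as listed at 0. The absolute depth is unknown. Depth relative to WT day 0 replicate 2 ran from 0.536 to 1.67 in KD libraries and from 0.451 to 1.10 in WT libraries. The lowest WT values, 0.451 to 0.717, belonged to 5 libraries that stood apart from the rest (the single day 14 library, and those numbered 1 at day 0, in cysts at days 3 and 8 and in layers at day 4). Leaving these 5 out moved the differences between each knockdown and WT by at most 0.39, for CHRM4 at day 0.

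The targeted genes were low in the libraries labelled as their knockdowns. DENND5A read 2.02 and 1.88 FPKM in DENND5A-KD cells at day 0, against 4.98 to 6.89 in WT cells at day 0. AVL9 read 7.21 and 5.70 FPKM in AVL9-KD cells at day 0, against 22.2 to 23.7 in WT cells. In the other knockdown, DENND5A was not low (8.88 and 7.97 FPKM in AVL9-KD cells at day 0) and AVL9 was near its WT level (21.5 and 23.6 FPKM in DENND5A-KD cells). The kidney epithelium list had 6 of 8 markers in the files, and their summed level ran from 728 to 1096 FPKM in KD libraries and from 624 to 937 FPKM in WT libraries. Markers of fibroblasts (6 of 7 in the files), endothelium (6 of 6) and leukocytes (7 of 7) were each under 1 FPKM in every library. In bulk RNA, fewer cells of a kind and less RNA per cell cannot be told apart.

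**Figure D1:**
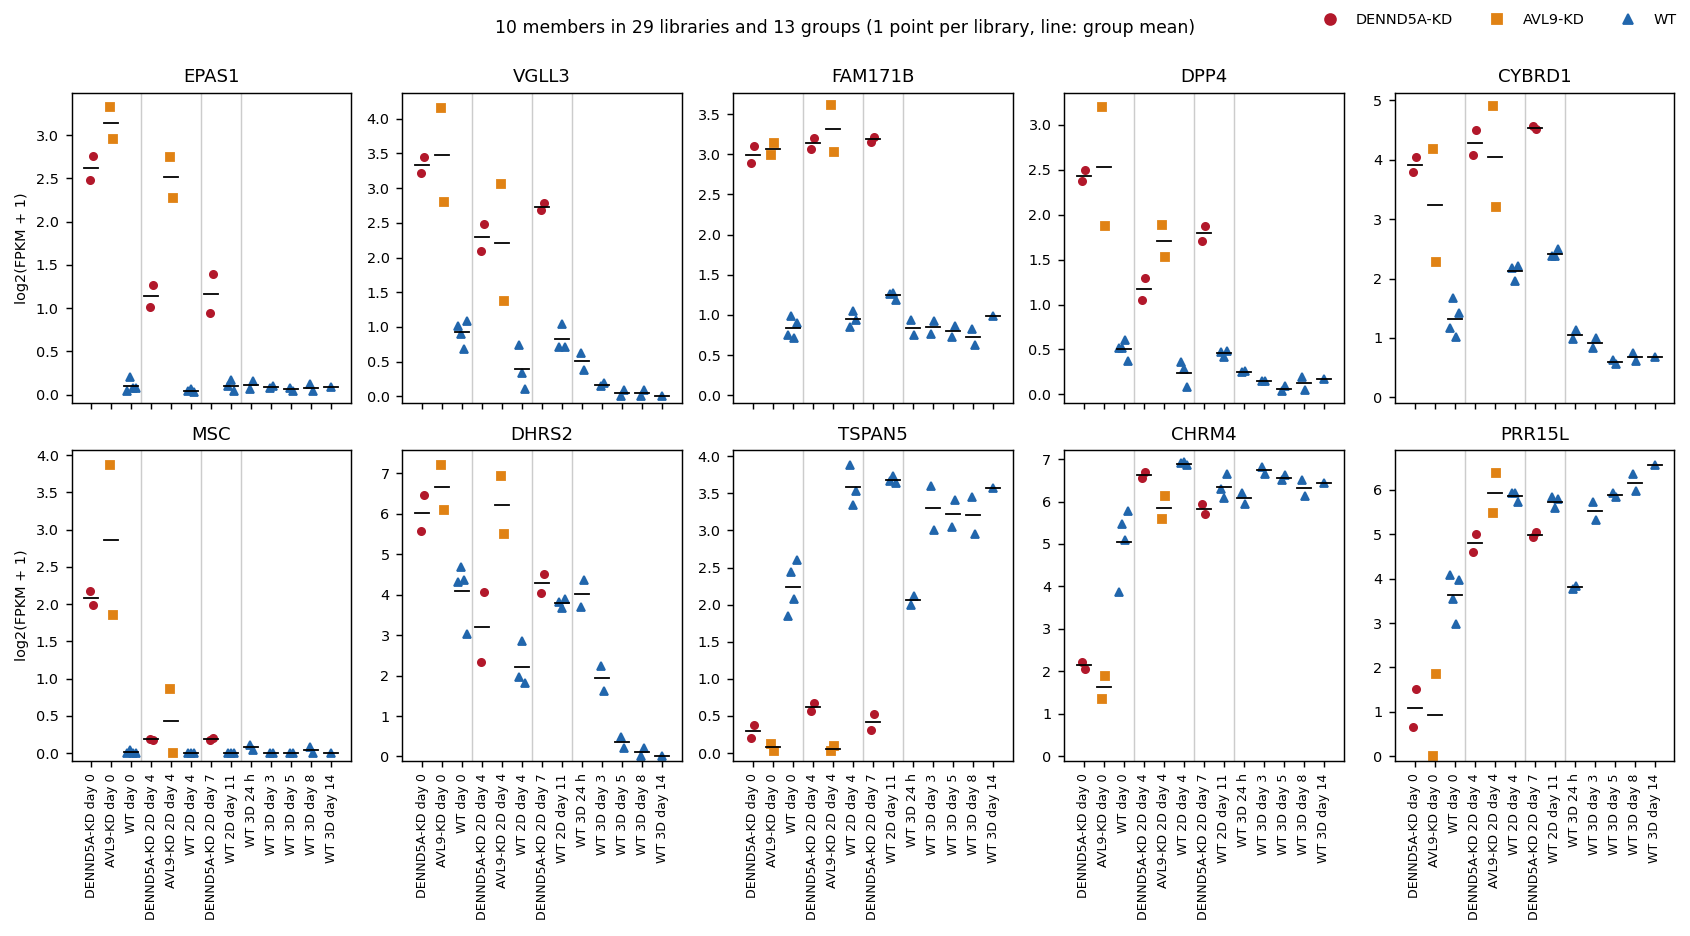
Level of the 10 members as log2(FPKM + 1) in each of 29 libraries, in 13 groups ordered as day 0, 2D days 4, 7 and 11, and 3D cultures, with each knockdown left of WT. Points are libraries and black lines are group means. The first 7 panels lie higher and the TSPAN5 panel lower in every KD group than in the WT group of the same day, except that DENND5A-KD overlaps WT for DHRS2 and AVL9-KD for MSC at 2D day 4, and CHRM4 and PRR15L are low in both knockdowns at day 0.

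At day 0 all 10 members separated both knockdowns from WT. The 7 higher members lay above every WT library in both knockdowns, where 11.9% of all 11774 genes tested did so in DENND5A-KD cells and 26.8% in AVL9-KD cells. The 3 lower members lay below every WT library, where 12.6% of genes did so in DENND5A-KD cells and 9.33% in AVL9-KD cells. Over all genes, 239 (2.03%) were called higher in both knockdowns at day 0 and 115 (0.977%) lower, at an adjusted p under 0.05. The 2D day 4 counts were 284 (2.41%) and 137 (1.16%). On that day 6 members lay above and 3 below every WT library in DENND5A-KD cells (16.5% and 18.2% of all genes), and 6 above and 2 below in AVL9-KD cells (38.1% and 6.17%). EPAS1, VGLL3, FAM171B, DPP4 and CYBRD1 were among the 113 genes (0.96%) called higher in both knockdowns on both days, and TSPAN5 was among the 21 (0.178%) called lower. Both comparisons share the WT libraries and the members were chosen on these values, so nothing is read from these counts. All 10 members passed the filter of 1 FPKM in at least 2 libraries. EPAS1, DPP4 and MSC passed it only through KD libraries, and TSPAN5 only through WT libraries.

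**Figure D2:**
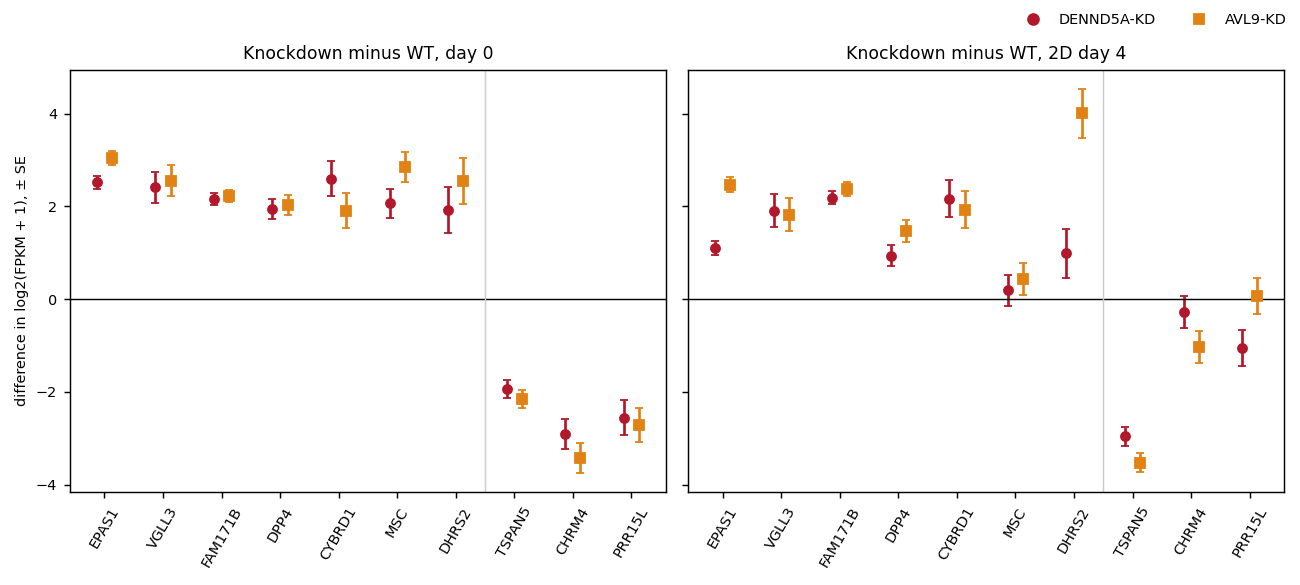
Difference in log2(FPKM + 1) between each knockdown and WT for the 10 members, at day 0 on the left and 2D day 4 on the right, with bars of 1 SE. At day 0 the differences lie between 1.91 and 3.04 for the 7 higher members and between -3.43 and -1.94 for the 3 lower ones. On 2D day 4 MSC lies within 0.43 of WT, and PRR15L lies at -1.06 in DENND5A-KD and 0.07 in AVL9-KD cells.

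EPAS1 (ENSCAFG00000002627) was near 0 in WT cells under all conditions and present in both knockdowns. It read 4.58 and 5.75 FPKM in DENND5A-KD and 8.99 and 6.77 FPKM in AVL9-KD cells at day 0, against 0.0328 to 0.152 FPKM in WT cells. On inserts at day 4 it read 1.02 and 1.42 FPKM in DENND5A-KD and 5.71 and 3.86 FPKM in AVL9-KD cells, against 0.0186 to 0.0476 FPKM in WT cells. No KD library overlapped WT, and its highest value in any of 19 WT libraries was 0.152 FPKM. Differences from WT on the log2 scale were 2.51 ± 0.15 and 3.04 ± 0.15 (SE) in DENND5A-KD and AVL9-KD cells at day 0, and 1.10 ± 0.16 and 2.47 ± 0.16 at 2D day 4. The 2 knockdowns also differed in level from each other, with AVL9-KD above DENND5A-KD in every library on both days. In order of group means, AVL9-KD day 0 (7.88 FPKM) lay above DENND5A-KD day 0 (5.16 FPKM) without overlap. AVL9-KD 2D day 4 (4.78 FPKM) overlapped the second, and DENND5A-KD 2D days 7 and 4 (1.28 and 1.22 FPKM) overlapped each other. No neighbouring pair among the 8 WT groups was apart.

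VGLL3 (ENSCAFG00000032508), the TEAD cofactor, had its highest group means at day 0 in both knockdowns. It read 8.27 and 9.88 FPKM in DENND5A-KD and 16.8 and 5.94 FPKM in AVL9-KD cells at day 0, against 0.605, 0.865, 1.03 and 1.12 FPKM in WT cells. On 2D day 4 it read 3.28 and 4.60 FPKM in DENND5A-KD and 7.30 and 1.59 FPKM in AVL9-KD cells, against 0.0747, 0.262 and 0.665 FPKM in WT cells. The KD and WT values did not overlap on either day. The log2 differences were 2.41 ± 0.34 and 2.55 ± 0.34 in DENND5A-KD and AVL9-KD cells at day 0, and 1.90 ± 0.36 and 1.82 ± 0.36 at 2D day 4. In WT cysts VGLL3 was at most 0.547 FPKM and was listed at 0 in 1 of 2 libraries at day 5, 1 of 2 at day 8 and in the day 14 library.

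MSC (ENSCAFG00000007923) was listed at 0 in 15 of 19 WT libraries and did not exceed 0.0744 FPKM in the others. At day 0 it read 3.50 and 2.95 FPKM in DENND5A-KD and 13.6 and 2.61 FPKM in AVL9-KD cells, against 0, 0.0336, 0 and 0 in WT cells. In layers at day 4 it read 0.142 and 0.131 FPKM in DENND5A-KD and 0.820 and 0 in AVL9-KD cells, and it was listed at 0 in all 3 WT libraries. In both knockdowns the day 0 libraries lay above the later ones. The log2 differences from WT at day 0 were 2.06 ± 0.32 and 2.85 ± 0.32 in DENND5A-KD and AVL9-KD cells, and their sizes rest on near-zero WT values.

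DPP4 (ENSCAFG00000025002), the surface peptidase, stayed at or under 0.519 FPKM in all WT libraries and above 1 FPKM in all 10 KD libraries. It read 4.20 and 4.64 FPKM in DENND5A-KD and 8.16 and 2.66 FPKM in AVL9-KD cells at day 0, against 0.292 to 0.519 FPKM in WT cells. At 2D day 4 it read 1.07 and 1.46 FPKM in DENND5A-KD and 2.69 and 1.89 FPKM in AVL9-KD cells, against 0.058, 0.215 and 0.282 FPKM in WT cells. The group means ran in the order AVL9-KD day 0 (5.41 FPKM), DENND5A-KD day 0 (4.42), DENND5A-KD 2D day 7 (2.47), AVL9-KD 2D day 4 (2.29), DENND5A-KD 2D day 4 (1.27) and then the WT groups. The day 0 groups overlapped each other, as did DENND5A-KD 2D day 7 and AVL9-KD 2D day 4, and the other neighbours among these were apart. Set against WT, the log2 differences were 1.94 ± 0.22 and 2.03 ± 0.22 in DENND5A-KD and AVL9-KD cells at day 0, and 0.93 ± 0.23 and 1.47 ± 0.23 at 2D day 4.

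CYBRD1 (ENSCAFG00000012667), the ferric reductase, was higher in 2D layers than at day 0 in every KD line and in WT. It read 12.8 and 15.5 FPKM in DENND5A-KD and 17.1 and 3.86 FPKM in AVL9-KD cells at day 0, against 1.03 to 2.18 FPKM in WT cells. In layers at day 4 it read 15.8 and 21.5 FPKM in DENND5A-KD and 28.9 and 8.16 FPKM in AVL9-KD cells, against 2.91, 3.53 and 3.64 FPKM in WT cells. The KD values lay above WT on both days, but AVL9-KD line 4 lay closest to it. The log2 differences were 2.59 ± 0.38 and 1.91 ± 0.38 in DENND5A-KD and AVL9-KD cells at day 0, and 2.16 ± 0.40 and 1.93 ± 0.40 at 2D day 4. Neighbours in the order of the 5 KD group means overlapped, except that DENND5A-KD 2D day 7 (22.7 and 21.8 FPKM) lay above DENND5A-KD 2D day 4. AVL9-KD day 0 also overlapped WT 2D day 11.

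DHRS2 (ENSCAFG00000025462) was the most abundant of the 7 higher members and had the widest range, from listed at 0 in WT cysts to 146 FPKM. It read 46.3 and 87.7 FPKM in DENND5A-KD and 146 and 67.3 FPKM in AVL9-KD cells at day 0, against 7.15, 19.0, 19.7 and 24.7 FPKM in WT cells. In layers the knockdowns parted by day 4. At 2D day 4 DHRS2 read 4.03 and 15.6 FPKM in DENND5A-KD and 121 and 44.3 FPKM in AVL9-KD cells, against 2.53, 2.92 and 6.18 FPKM in WT cells, so that DENND5A-KD overlapped WT and AVL9-KD did not. The log2 differences from WT were 1.92 ± 0.49 and 2.55 ± 0.49 in DENND5A-KD and AVL9-KD cells at day 0, and 0.98 ± 0.52 and 4.00 ± 0.52 at 2D day 4. The DENND5A-KD difference at 2D day 4 was 0.12 without line 2 and 1.84 without line 1.

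FAM171B (ENSCAFG00000028669) differed between the lines of a knockdown by a factor of at most 1.57. It read 6.40 and 7.60 FPKM in DENND5A-KD and 6.92 and 7.80 FPKM in AVL9-KD cells at day 0, against 0.637 to 0.987 FPKM in WT cells. On 2D day 4 it read 7.41 and 8.19 FPKM in DENND5A-KD and 11.2 and 7.14 FPKM in AVL9-KD cells, against 0.804, 0.918 and 1.07 FPKM in WT cells. All 10 KD libraries lay between 6.40 and 11.2 FPKM and all 19 WT libraries between 0.542 and 1.42 FPKM. Set against WT, the log2 differences were 2.16 ± 0.14 and 2.22 ± 0.14 in DENND5A-KD and AVL9-KD cells at day 0, and 2.19 ± 0.14 and 2.37 ± 0.14 at 2D day 4. No 2 neighbours among the 5 KD groups were apart in range.

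TSPAN5 (ENSCAFG00000010287), the ADAM10-binding tetraspanin, was below 0.6 FPKM in all 10 KD libraries and above 2.5 FPKM in all 19 WT libraries. It read 0.156 and 0.300 FPKM in DENND5A-KD and 0.0935 and 0.0212 FPKM in AVL9-KD cells at day 0, against 2.59, 3.20, 4.41 and 5.07 FPKM in WT cells. At 2D day 4 it read 0.483 and 0.598 FPKM in DENND5A-KD and 0.0216 and 0.0649 FPKM in AVL9-KD cells, against 9.11, 10.6 and 13.8 FPKM in WT cells. The mean in WT layers at day 4 was 2.92 times that at day 0, and no KD library reached the lowest WT value. Differences from WT on the log2 scale were -1.94 ± 0.20 and -2.16 ± 0.20 in DENND5A-KD and AVL9-KD cells at day 0, and -2.96 ± 0.21 and -3.53 ± 0.21 at 2D day 4. DENND5A-KD lay above AVL9-KD in every library on both days.

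CHRM4 (ENSCAFG00000009203), the muscarinic receptor gene, was among the most abundant members in WT cells and far below WT in the knockdowns at day 0. It read 3.67 and 3.16 FPKM in DENND5A-KD and 1.55 and 2.74 FPKM in AVL9-KD cells at day 0, against 13.7, 33.2, 43.0 and 53.7 FPKM in WT cells. The lowest WT value was that of replicate 1, one of the 5 libraries that stood apart. In layers at day 4 CHRM4 read 92.7 and 102 FPKM in DENND5A-KD and 46.9 and 69.0 FPKM in AVL9-KD cells, against 115, 118 and 121 FPKM in WT cells. The KD values stayed below WT, but the log2 differences were -0.27 ± 0.34 and -1.04 ± 0.34 in DENND5A-KD and AVL9-KD cells at 2D day 4, against -2.91 ± 0.33 and -3.43 ± 0.33 at day 0. Without the 5 libraries the day 0 differences were -3.30 and -3.82.

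PRR15L (ENSCAFG00000016816) followed a similar course. It read 0.574 and 1.83 FPKM in DENND5A-KD cells and was listed at 0 and at 2.61 FPKM in AVL9-KD cells at day 0, against 6.85, 10.6, 14.6 and 15.8 FPKM in WT cells. On 2D day 4 it read 23.4 and 31.1 FPKM in DENND5A-KD and 44.0 and 82.2 FPKM in AVL9-KD cells, against 52.0, 60.3 and 60.4 FPKM in WT cells. DENND5A-KD remained below WT there, whereas the 2 AVL9-KD libraries lay on either side of all WT values. The log2 differences were -2.56 ± 0.37 and -2.71 ± 0.37 in DENND5A-KD and AVL9-KD cells at day 0, and -1.06 ± 0.39 and 0.07 ± 0.39 at 2D day 4. The AVL9-KD value at 2D day 4 was 0.51 without line 1 and -0.38 without line 4.

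At day 0 the 2 AVL9-KD lines differed by a larger factor than the 2 DENND5A-KD lines for 6 of the 7 higher members, FAM171B being the exception. Line 1 over line 4 then gave a ratio of 5.22 for MSC, 4.43 for CYBRD1, 3.07 for DPP4, 2.84 for VGLL3, 2.17 for DHRS2 and 1.33 for EPAS1, and 0.888 for FAM171B. Line 1 was thus the higher AVL9-KD line for 6 of the 7 higher members. At 2D day 4 the ratio was 4.59 for VGLL3, 3.53 for CYBRD1, 2.73 for DHRS2 and between 1.42 and 1.57 for EPAS1, FAM171B and DPP4. CHRM4 and PRR15L were lower in line 1 on both days, with CHRM4 ratios of 0.567 at day 0 and 0.68 at 2D day 4. In DENND5A-KD cells line 2 over line 1 at day 0 gave 0.843 for MSC, 1.89 for DHRS2 and 1.10 to 1.26 for the other 5 higher members. AVL9 itself was lower in line 4, with 5.70 FPKM against 7.21 FPKM in line 1 at day 0. Which property of the lines goes with these differences was not tested. Leaving out AVL9-KD line 1 took the day 0 difference from WT to 0.96 for CYBRD1, 1.37 for DPP4, 1.84 for MSC and 1.87 for VGLL3. At 2D day 4 it was 1.08 for CYBRD1 and 0.98 for VGLL3 without that line. All of these kept their direction.

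The members took different courses when the knockdown cells formed layers. The same KD lines were sampled at day 0 and on 2D day 4, but the SE of the day differences below treats their libraries as unpaired. CHRM4 and PRR15L were higher on 2D day 4 than at day 0 without overlap in DENND5A-KD, AVL9-KD and WT cells. Of all genes tested 34.7% in DENND5A-KD, 40.9% in AVL9-KD and 29.6% in WT cells were so. The day 4 minus day 0 difference for CHRM4 was 4.48 ± 0.38 in DENND5A-KD and 4.23 ± 0.38 in AVL9-KD cells, and 1.84 ± 0.29 in WT cells. For PRR15L it was 3.73 ± 0.43 in DENND5A-KD and 5.01 ± 0.43 in AVL9-KD cells, and 2.23 ± 0.33 in WT cells. The distance of the knockdowns from WT was therefore smaller on day 4 for both genes. For TSPAN5 the day 4 minus day 0 difference was 0.33 ± 0.23 in DENND5A-KD and -0.02 ± 0.23 in AVL9-KD cells, but 1.35 ± 0.18 in WT cells. Its distance from WT was therefore larger on day 4 on this scale, which flattens changes at the low KD levels. As FPKM, the TSPAN5 mean on day 4 was 2.37 times that at day 0 in DENND5A-KD (without overlap), 0.754 times in AVL9-KD and 2.92 times in WT cells. Its DENND5A-KD mean was 0.0598 of WT at day 0 and 0.0484 on day 4, and its AVL9-KD mean 0.0150 and 0.00387.

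Among the higher members, EPAS1 and MSC were lower on 2D day 4 than at day 0 in both knockdowns without overlap, as were 37.8% of all genes in DENND5A-KD and 31.1% in AVL9-KD cells. These differences were -1.47 and -0.63 for EPAS1 and -1.89 and -2.43 for MSC, in DENND5A-KD and AVL9-KD cells. DHRS2 was lower by day 4 in DENND5A-KD (-2.82 ± 0.57) and in WT cells (-1.89 ± 0.44), where 27.4% of all genes were lower without overlap, and read -0.43 ± 0.57 in AVL9-KD cells, whose ranges overlapped. Within each AVL9-KD line DHRS2 was lower on day 4, at 0.827 times its day 0 value in line 1 and 0.658 times in line 4. VGLL3 and DPP4 also were lower on day 4 within every line of both knockdowns. For VGLL3 the day 4 over day 0 ratio was 0.397 and 0.465 in DENND5A-KD lines 1 and 2 and 0.433 and 0.268 in AVL9-KD lines 1 and 4. For DPP4 it was 0.255 and 0.315 in the DENND5A-KD lines and 0.329 and 0.71 in the AVL9-KD lines. The group means of FAM171B differed little between the days, by 0.14 ± 0.16 in DENND5A-KD, 0.26 ± 0.16 in AVL9-KD and 0.11 ± 0.12 in WT cells. Its AVL9-KD lines went opposite ways, with a day 4 over day 0 ratio of 1.62 in line 1 and 0.916 in line 4. DENND5A-KD cells at 2D day 7, set against day 4, had higher CYBRD1, DPP4 and VGLL3 and lower CHRM4 and TSPAN5 without overlap. Among all tested genes 21.8% lay higher and 18% lower without overlap in that comparison.

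**Figure D3:**
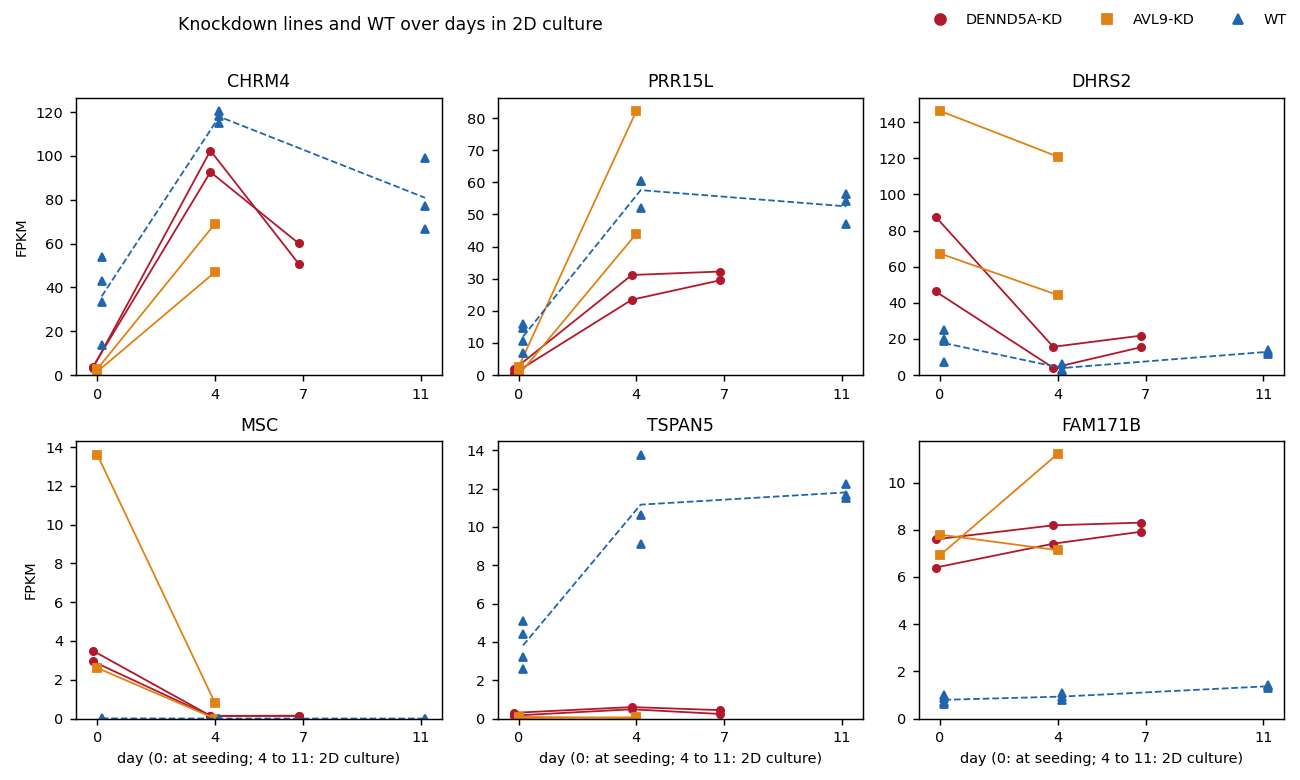
FPKM of CHRM4, PRR15L, DHRS2, MSC, TSPAN5 and FAM171B against day, in both lines of DENND5A-KD and AVL9-KD (solid lines join libraries of 1 line) and in WT (dashed line through group means). CHRM4 and PRR15L lie higher on day 4 than on day 0 in all KD lines, TSPAN5 stays under 0.6 FPKM in them, MSC is at most 0.148 FPKM after day 0 apart from 1 AVL9-KD library at 0.820 FPKM, and FAM171B stays between 6.40 and 11.2 FPKM.

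Tests of the members were confined to libraries that did not choose the members. In WT cysts at days 3, 5 and 8, each against 24 h, the same 3 members passed at an adjusted p under 0.05 in each comparison (limma, Benjamini-Hochberg over 11774 genes). TSPAN5 and PRR15L were higher than at 24 h, where 16.7% of all genes were called higher at day 3, 17.1% at day 5 and 17.3% at day 8. DHRS2 was lower, where 17.8%, 28% and 36.5% were. EPAS1, VGLL3, FAM171B, DPP4 and MSC averaged under 1 FPKM in these groups, where differences on this scale come out small. Nothing is therefore read from the count of 3 among 10 members. In either direction 34.4%, 45% and 53.8% of all genes were called. Of these calls 38.0% at day 5 and 32.2% at day 8 were higher with the deposited scale, against 49.5% and 49.9% with median-ratio scaling, which left the 3 members called. The 3 comparisons share the 24 h libraries, and their values are set side by side.

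PRR15L read 52.3 and 38.8 FPKM in cysts at day 3, 60.3 and 56.6 at day 5, 81.3 and 61.5 at day 8 and 93.6 at day 14, against 12.7 and 13.3 at 24 h. All later libraries lay above both 24 h libraries. The log2 differences from 24 h were 1.72 ± 0.43, 2.09 ± 0.43 and 2.36 ± 0.43 at days 3, 5 and 8 (limma, adjusted p = 0.00439, 0.000564 and 0.00012). Without the 5 libraries that stood apart the day 3 value was 1.51 (adjusted p = 0.0532).

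In cysts TSPAN5 read 11.1 and 7.06 FPKM on day 3, 7.22 and 9.61 on day 5, 9.91 and 6.77 on day 8, and 10.9 in the day 14 library, against 3.00 and 3.34 FPKM at 24 h. It rose by 1.25 ± 0.23, 1.16 ± 0.23 and 1.14 ± 0.23 (limma, adjusted p = 0.000459, 0.000406 and 0.000332), and the later days overlapped each other.

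In cysts DHRS2 read 3.72 and 2.09 FPKM on day 3, with 0.393 and 0.160 FPKM on day 5, and it was listed at 0 and 0.148 at day 8 and at 0 at day 14, against 11.9 and 19.4 FPKM at 24 h. It was lower by the day without overlap from 24 h to day 8. The log2 differences from 24 h were -2.09 ± 0.57, -3.67 ± 0.57 and -3.92 ± 0.57 at days 3, 5 and 8 (limma, adjusted p = 0.00831, 4e-05 and 1.16e-05). The day 3 call was lost without replicate 3 of 24 h (adjusted p = 0.0782) or replicate 2 of day 3 (adjusted p = 0.0703).

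CHRM4 read 112 and 99.4 FPKM in cysts at day 3 and 89.5 and 97.6 at day 5, against 72.8 and 60.7 at 24 h. These differences of 0.66 ± 0.38 and 0.49 ± 0.38 did not pass (limma, adjusted p = 0.184 and 0.311), although the libraries did not overlap. CYBRD1 read 0.481 to 0.995 FPKM at days 3 to 8, against 0.969 and 1.20 FPKM at 24 h, and did not pass either (limma, adjusted p = 0.825, 0.421 and 0.482). EPAS1, VGLL3, FAM171B, DPP4 and MSC averaged under 1 FPKM in all of these groups. None of the 7 members that were higher in the knockdowns read above 3.72 FPKM in a WT cyst from day 3 on.

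Cysts at day 8 were also set against 2D layers at day 11, a comparison in which culture and day cannot be told apart. Of the members 3 were called, all lower in cysts, where 46.1% of all genes were called, 35.2% lower and 10.9% higher. CYBRD1 read 0.670 and 0.526 FPKM in cysts at day 8, against 4.20 to 4.61 FPKM in layers at day 11, a difference of -1.74 ± 0.40 (limma, adjusted p = 0.00151). DHRS2 was listed at 0 and 0.148 FPKM in cysts, against 11.7 to 13.9 FPKM in layers, a difference of -3.69 ± 0.52 (limma, adjusted p = 1.42e-05). FAM171B read 0.771 and 0.542 FPKM in cysts, against 1.40, 1.42 and 1.29 FPKM in layers, a difference of -0.52 ± 0.14 (limma, adjusted p = 0.00605). The FAM171B call was lost without replicate 2 of day 8 (adjusted p = 0.0874). The median over all genes was -0.20 in this comparison, and 23.6% of its calls were higher, against 49.7% with quantile normalization. TSPAN5 read 9.91 and 6.77 FPKM in cysts, against 11.5 to 12.2 FPKM in layers, which missed the threshold (-0.48 ± 0.21, limma, adjusted p = 0.0707) but passed it without the 5 libraries (-0.72, adjusted p = 0.00558). PRR15L and CHRM4 did not pass (0.43 ± 0.39 and -0.03 ± 0.34, limma, adjusted p = 0.391 and 0.965).

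DENND5A-KD layers at day 7 and WT layers at day 11 held 5 libraries that had no part in the choice. The knockdown lines are the same as in the groups that did, and genotype and day cannot be told apart here. The p-values of members in this comparison are therefore no evidence independent of the choice. Of the 10 members 6 were called in the direction seen at day 0, where 5.78% of all genes were called, 2.73% higher and 3.06% lower. EPAS1 and DPP4 passed the filter on low values only through KD libraries and TSPAN5 only through WT libraries, so nothing is read from this count, and these 3 are given as a description without a test. EPAS1 read 0.927 and 1.63 FPKM in DENND5A-KD layers, against 0.0284, 0.0687 and 0.126 FPKM in WT layers, a difference of 1.07 ± 0.16. FAM171B read 7.92 and 8.30 FPKM in DENND5A-KD layers, against 1.29 to 1.42 FPKM in WT layers, a difference of 1.94 ± 0.14 (limma, adjusted p = 5.16e-08). TSPAN5 read 0.239 and 0.438 FPKM in DENND5A-KD layers, against 11.5, 11.7 and 12.2 FPKM in WT layers, a difference of -3.26 ± 0.21.

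CYBRD1, VGLL3 and DPP4 also read higher in the knockdown layers. CYBRD1 read 22.7 and 21.8 FPKM in DENND5A-KD, against 4.20 to 4.61 FPKM in WT (2.12 ± 0.40, limma, adjusted p = 0.00291). VGLL3 read 5.42 and 5.89 FPKM in DENND5A-KD, against 0.634, 0.639 and 1.07 FPKM in WT (1.91 ± 0.36, limma, adjusted p = 0.00262). DPP4 read 2.27 and 2.67 FPKM in DENND5A-KD, against 0.339 to 0.397 FPKM in WT (1.33 ± 0.23). The VGLL3 call was lost without line 2 (adjusted p = 0.0522).

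The other 4 members, DHRS2, PRR15L, CHRM4 and MSC, were not called there. DHRS2 read 15.5 and 21.9 FPKM in DENND5A-KD layers, against 11.7 to 13.9 FPKM in WT layers (0.49 ± 0.52, limma, adjusted p = 0.667). PRR15L read 29.5 and 32.2 FPKM in DENND5A-KD layers, against 47.1, 54.2 and 56.2 FPKM in WT layers (-0.75 ± 0.39, limma, adjusted p = 0.307). CHRM4 read 60.1 and 50.8 FPKM in DENND5A-KD layers, against 66.8, 77.1 and 98.9 FPKM in WT layers (-0.52 ± 0.34, limma, adjusted p = 0.44). MSC read 0.134 and 0.148 FPKM in DENND5A-KD layers and was listed at 0 in all WT layers. The groups did not overlap for any of the 10 members, 7 higher and 3 lower, where 17.9% of all genes lay higher and 32.9% lower without overlap. Nothing is read from this count either.

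**Figure D4:**
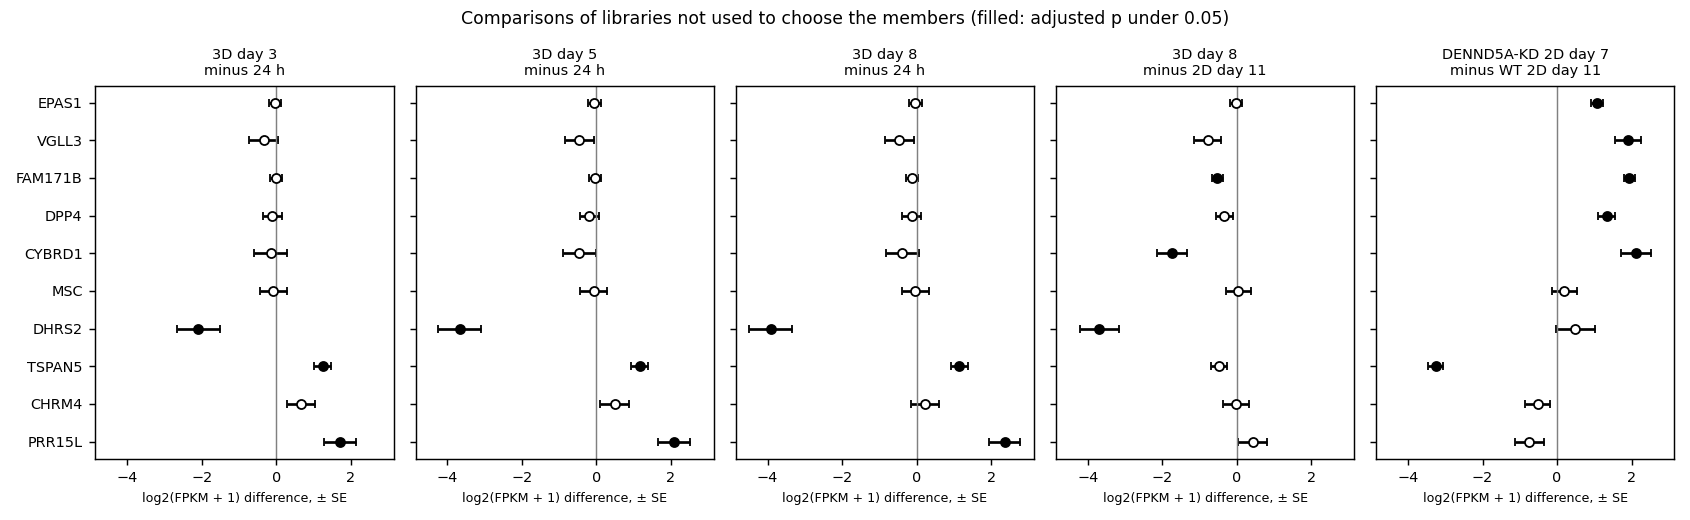
Difference in log2(FPKM + 1) with bars of 1 SE for the 10 members in 5 comparisons of libraries that did not choose them, with filled points at an adjusted p under 0.05 (limma). DHRS2 lies left and TSPAN5 and PRR15L right of 0 in all 3 cyst comparisons, and 6 members are filled in DENND5A-KD 2D day 7 against WT 2D day 11. In that panel the fill of EPAS1, DPP4 and TSPAN5 follows the same rule but is not read as a test result. EPAS1 and DPP4 passed the filter only through KD libraries and TSPAN5 only through WT libraries.

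Across the 13 group means of log2(FPKM + 1), which include the 6 groups that chose the members, several members followed each other. Pearson's r was 0.98 for VGLL3 and DPP4, 0.96 for EPAS1 and DPP4, 0.95 for FAM171B and CYBRD1, and 0.93 for CHRM4 and PRR15L. The correlation of MSC with CHRM4 was -0.96. Among 8076 genes with a symbol of their own and at least 5 FPKM in a group, the gene most like each member was named. SP3, a zinc finger transcription factor, was most like FAM171B (r = 0.99), and NEBL, an actin-binding protein, was most like VGLL3 (r = 0.99). GATA6, a transcription factor, was most like DHRS2 (r = 0.99), PLEKHA3 was most like EPAS1 (r = 0.98), and VGLL3 was most like DPP4 (r = 0.98). TSPAN33, a tetraspanin of the same ADAM10-binding group as TSPAN5, was most like PRR15L (r = 0.98), and ALDH1A1, a retinal dehydrogenase, was most like CHRM4 (r = 0.97). NCK2, an adaptor protein, was most like CYBRD1 (r = 0.97), UBASH3B was most like MSC (r = 0.95), and DMTN, an actin-bundling protein, was most like TSPAN5 (r = 0.95). The second in line were IGDCC4 for EPAS1, DPP4 for VGLL3, C1orf21 for FAM171B, PLEKHA3 for DPP4, RARRES3 for CYBRD1, SNORD26 for MSC, TMC6 for DHRS2, P2RX4 for TSPAN5, CLDN2 for CHRM4 and SFTPD for PRR15L.

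Genes of the pathways around the members were followed in the same knockdown comparisons, whose libraries chose the members. The lists were chosen with earlier results of these data known, and genes were named from them by their smallest adjusted p or as set partners. Their shares, and the p-values given for single list genes, are therefore a description and no independent evidence. Of 122 list genes tested, 16 passed in DENND5A-KD against WT at day 0 (13.1%, against 5.52% of all genes) and 31 in AVL9-KD against WT at day 0 (25.4%, against 18%). Of the same genes, 20 passed at 2D day 4 in DENND5A-KD (16.4%, against 11.3%) and 32 in AVL9-KD (26.2%, against 21%). By direction, 3.27% of all genes were called higher and 2.25% lower in DENND5A-KD and 13.4% and 4.59% in AVL9-KD cells at day 0. For layers at day 4 the shares were 5.54% and 5.79% in DENND5A-KD and 18.7% and 2.34% in AVL9-KD cells. The median over all genes was 0.11 in AVL9-KD at day 0 and 0.19 at 2D day 4, and -0.01 in DENND5A-KD at day 0 and -0.03 at 2D day 4. With quantile normalization 48.5% of the calls in AVL9-KD at day 0 were higher, against 74.5% with the deposited scale, and at 2D day 4 the shares were 53.1% and 88.9%. Of 74 named pairs of gene and knockdown comparison, 23 kept their call when any 1 library was left out, and 17 kept it under every alternative run. Where a call given below was lost, at least 1 of the alternatives that lost it is stated, but not always all of them.

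Of 20 hypoxia pathway genes tested around EPAS1, 3 were higher in DENND5A-KD and 4 in AVL9-KD cells at day 0, and none was lower. On 2D day 4, 4 were higher and 1 lower in DENND5A-KD cells, and 7 were higher in AVL9-KD cells. VEGFA, the angiogenic growth factor, averaged 43.7 FPKM in AVL9-KD and 18.0 FPKM in WT cells at 2D day 4 (1.26 ± 0.29, limma, adjusted p = 0.00432). ARNT, the partner of EPAS1, passed in 3 of 4 knockdown comparisons with differences of 0.34 to 0.49, and EGLN3, a prolyl hydroxylase that marks HIF proteins, in both AVL9-KD comparisons (1.56 and 1.16). HIF1A was lower in DENND5A-KD cells at 2D day 4 (-0.73 ± 0.15, limma, adjusted p = 0.00282). The ARNT, EGLN3 and HIF1A calls were each lost when 1 KD line was left out. In AVL9-KD cells at 2D day 4 the ARNT call was also lost under both other scalings, and the EGLN3 call with median-ratio scaling. ARNT2, SLC2A1 and P4HA2 were also named by the rule in these comparisons.

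Around VGLL3, 1 of 15 TEAD factors, cofactors and targets was higher and 1 lower in DENND5A-KD cells at day 0, against 4 and 1 in AVL9-KD cells. In layers at day 4, 1 was lower in DENND5A-KD and 6 were higher in AVL9-KD cells. ANKRD1, a TEAD target, averaged 32.7 FPKM in AVL9-KD and 7.74 FPKM in WT cells at day 0 (2.09 ± 0.40, limma, adjusted p = 0.00134). It was also higher in DENND5A-KD cells at day 0 (1.79 ± 0.40, limma, adjusted p = 0.00808), a call lost without line 2. AMOTL2, which binds YAP1, averaged 42.0 FPKM in AVL9-KD and 20.2 FPKM in WT cells at 2D day 4 (1.03 ± 0.22, limma, adjusted p = 0.00302). LATS2, a kinase that restrains YAP1, was lower in DENND5A-KD cells on both days (-0.87 and -0.85), calls lost without line 1 and, at day 0, also without line 2. TEAD1 and VGLL4 passed in none of the 4 knockdown comparisons, with differences of 0.13 to 0.24 for TEAD1 and -0.07 to 0.32 for VGLL4.

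Among 12 peptidases tested beside DPP4, 2 were higher in each knockdown at day 0, and 3 were lower in each at 2D day 4, with 1 higher in AVL9-KD cells. MME, the surface endopeptidase neprilysin, was lower in both knockdowns at 2D day 4 (-1.22 and -1.16), with calls lost without line 1 in each. ADA, adenosine deaminase, which human DPP4 binds, was higher in both at day 0 (0.75 and 0.81), with the DENND5A-KD call lost without line 2 and the AVL9-KD call lost with the groups of the comparison alone.

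Among 16 iron handling genes tested beside CYBRD1, none was higher in DENND5A-KD cells, and 2 were lower at day 0 and 3 at 2D day 4. In AVL9-KD cells 2 were higher and 1 lower at day 0, and 2 were higher at 2D day 4. STEAP2, another metalloreductase, averaged 24.0 FPKM in AVL9-KD and 1.90 FPKM in WT cells at day 0 (3.06 ± 0.25, limma, adjusted p = 7.77e-08), and 8.28 against 2.81 FPKM at 2D day 4 (1.31 ± 0.26, adjusted p = 0.00182). In DENND5A-KD cells it did not pass (0.24 and -0.08). SLC11A2, the importer of the ferrous iron that ferric reductases release, averaged 26.4 FPKM in AVL9-KD and 14.1 FPKM in WT cells at 2D day 4 (0.86 ± 0.13, limma, adjusted p = 0.000164). SLC25A37, the mitochondrial iron importer, averaged 8.54 FPKM in DENND5A-KD and 23.2 FPKM in WT cells at day 0 (-1.33 ± 0.23, limma, adjusted p = 0.000915). TFRC, the transferrin receptor, passed in none, with differences of -0.63 to 0.45.

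Of 6 tested helix-loop-helix partners and inhibitors of MSC, 1 was lower in DENND5A-KD cells at day 0, and 3 were lower and 1 higher in AVL9-KD cells. ID3, an inhibitor of such factors, averaged 12.4 FPKM in AVL9-KD and 36.2 FPKM in WT cells at day 0 (-1.45 ± 0.25, limma, adjusted p = 0.000472). BHLHE40 was lower at day 0 in both knockdowns (-1.06 and -0.99), with calls lost when 1 line was left out, and TCF12 passed in none (-0.19 to 0.10). Of 16 reductases tested beside DHRS2, none passed in DENND5A-KD cells at day 0 and 4 were higher and 1 lower in AVL9-KD cells. CBR3, a carbonyl reductase, averaged 3.14 FPKM in AVL9-KD and 0.897 FPKM in WT cells at day 0 (1.14 ± 0.21, limma, adjusted p = 0.00122) and was again higher at 2D day 4 (1.24 ± 0.23, adjusted p = 0.000837). DHRS3, a retinal reductase, was lower in AVL9-KD cells at day 0 (-0.71 ± 0.24, limma, adjusted p = 0.0457). That call was lost under 9 of 14 alternatives, both other scalings among them. At 2D day 4, 1 reductase was lower in DENND5A-KD cells and 3 were higher in AVL9-KD cells.

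Of 22 tetraspanins, ADAM and NOTCH genes tested beside TSPAN5, 2 were higher and 2 lower in DENND5A-KD and 3 higher and 2 lower in AVL9-KD cells at day 0. By 2D day 4 there were 3 higher and 2 lower in DENND5A-KD, and 7 higher and 1 lower in AVL9-KD cells. TSPAN12 averaged 35.2 FPKM in DENND5A-KD, 31.3 FPKM in AVL9-KD and 18.1 FPKM in WT cells at day 0 (0.92 ± 0.11 and 0.76 ± 0.11, limma, adjusted p = 1.87e-05 and 0.000111). It was again higher in both at 2D day 4 (0.51 and 0.60, limma, adjusted p = 0.00643 and 0.00149), with both calls lost with the groups of the comparison alone and the DENND5A-KD call also without line 1. TSPAN15 and TSPAN33 belong with TSPAN5 to the tetraspanins that bind ADAM10. TSPAN33 averaged 1.04 FPKM in AVL9-KD and 6.67 FPKM in WT cells at day 0 (-1.89 ± 0.29, limma, adjusted p = 0.000203), and TSPAN15 averaged 1.44 FPKM in DENND5A-KD and 3.44 FPKM in WT cells (-0.85 ± 0.13, limma, adjusted p = 0.000396). TSPAN33 was also lower in DENND5A-KD (-1.23) and TSPAN15 in AVL9-KD cells (-0.47) at day 0, while TSPAN15 was higher in AVL9-KD cells at 2D day 4 (0.56), with these 3 calls lost when 1 line was left out. The TSPAN15 call at 2D day 4 was also lost with median-ratio scaling. TSPAN14, of the same kind, passed in none of the 4 comparisons (-0.15 to 0.11). TSPAN17, another tetraspanin of the list, was higher in AVL9-KD cells at day 0 (0.42 ± 0.12, limma, adjusted p = 0.0231). The TSPAN17 call was lost without line 1 and with quantile normalization, among others. ADAM10 passed in AVL9-KD cells at 2D day 4 alone (0.40 ± 0.13, limma, adjusted p = 0.0294). That call was lost under 7 of 13 alternatives, both other scalings among them.

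Of 13 muscarinic and inhibitory G protein genes tested beside CHRM4, 1 was lower in each knockdown at day 0 and 1 higher in AVL9-KD cells, and at 2D day 4, 1 was higher in DENND5A-KD cells. BCHE, a cholinesterase, was lower at day 0 in both knockdowns (-0.89 and -0.93), with calls lost when 1 line was left out. GNAI2, an inhibitory G protein subunit, passed in none (-0.33 to 0.21). FAM171A1, a paralog of FAM171B, averaged 0.102 FPKM in AVL9-KD and 2.39 FPKM in WT cells at day 0 (-1.58 ± 0.19, limma, adjusted p = 1.38e-05), and 0.230 against 4.01 FPKM at 2D day 4 (-2.03 ± 0.20, adjusted p = 1.87e-06). In DENND5A-KD cells at day 0 it averaged 4.42 FPKM (0.71 ± 0.19, limma, adjusted p = 0.0299), a call lost under 7 of 14 alternatives, with either line left out among them. FAM171A1 was therefore lower in AVL9-KD cells while FAM171B was higher.

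In DENND5A-KD 2D day 7 against WT 2D day 11, 13 of the 122 list genes passed (10.7%, against 5.78% of all genes), 5 higher and 8 lower. TSPAN12 (0.72 ± 0.12, limma, adjusted p = 0.000715) and TSPAN15 (0.82 ± 0.14, limma, adjusted p = 0.00141) were higher in DENND5A-KD layers and kept their calls under every alternative run. LATS2 (-0.92) and SLC25A37 (-1.06) were lower and EGLN3 (1.29) and ADA (0.74) higher, with calls lost when 1 line was left out.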

How the data were processed

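Each library has 1 table deposited by the authors, with an FPKM value for 24223 dog genes. The submitters' processing notes list HISAT2 2.1.0 and Cufflinks 2.2.1 with no role or order, and 2 builds of the dog genome, canFam3 and CanFam3.1. Whether libraries were scaled further is not stated, and counts were not used. No coordinates or sequences are given, since the annotation at hand is of another build. The members and lists were chosen with earlier results of these data known.

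The 11774 genes that reached 1 FPKM in 2 or more libraries were fitted as log2(FPKM + 1) with limma 3.58.1 in R 4.3.3 (trend, 1 mean per group, 29 libraries), 2-sided, with Benjamini-Hochberg adjustment over all of them at 0.05. Tables and figures were made with Python 3.11.15, pandas 2.3.3, numpy 2.4.6 and matplotlib 3.10.9. Named were the members, the targeted genes, the 2 genes most like each member, up to 2 genes per direction of each list with the smallest adjusted p, and set partners, of which VHL and ANPEP are not used here. The values of 2 list genes are not reported here. Relative depth came from the step sizes of values below 0.15 FPKM.

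Each result was recomputed with median-ratio scaling or quantile normalization, with 0.1 as pseudocount, without the filter, with the replicate number as a block, with the groups of a comparison alone, without each library in turn, and without the 5 libraries that stood apart or with a batch term for them. WT libraries of 1 number did not deviate together in the tested comparisons (r of -0.11 to 0.05). WT libraries of 1 number did between 2D day 4 and day 0 (r = 0.56, 0.23 and 0.13 for numbers 1, 2 and 3), and those differences are given unpaired, as a description. Knockdown numbers mark lines. Between 2D day 4 and day 0, libraries of 1 line deviated together in AVL9-KD (r = 0.36) and less so in DENND5A-KD cells (r = 0.097). The day differences of the knockdowns are likewise given unpaired, as a description. On simulated data with 200 of 11774 genes changed, 74.6 to 85.1% of changes of 1 on the log2 scale were recovered, and 4 to 10 unchanged genes were called per comparison.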

Additional observations from a re-analysis of the deposited data

Results flagged for a closer look

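MSC in WT cells at day 0 had 1 library, replicate 2, at 0.0336 FPKM, far from the other 3, which were listed at 0. At this level a value stands for very few reads. With the other 3 listed at exactly 0, any value above 0 would lie apart from them, so nothing is read from it.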

How the results depend on the processing

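Of the differences between each knockdown and WT, 471 values under other settings stayed within 1 SD of the spread between libraries and 67 moved further, 29 of them with a pseudocount of 0.1, and no called one changed sign. In the tested comparisons, for members with at least 1 FPKM in a group, 356 values kept their direction and side of the threshold, 6 lost and 8 gained a call, and 6 changed sign without a call. PRR15L at 3D day 3 against 24 h lost its call with a pseudocount of 0.1 (adjusted p = 0.108). CHRM4 in 3D day 8 against 2D day 11, -0.03 and not called, read 0.11 with quantile normalization, 0.24 with median-ratio scaling, 0.16 with the batch term and 0.0068 with the replicate block, and from -0.2156 to 0.1654 when 1 library was left out (0.1277 without replicate 3 of 2D day 11). Members called there numbered 3, 5 with its groups alone, and 5 with a pseudocount of 0.1, including VGLL3 and DPP4, which lay under 1 FPKM. With the replicate block 4 members were called there, including VGLL3, and in the other 4 tested comparisons as many as without it. After the data were seen, crossed numbers were also tried for 3D day 5 against 24 h, with 3 members and 5874 genes called, against 5304 genes.

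List genes called in AVL9-KD at 2D day 4 numbered 32, with 9 for the groups alone and 17 to 33 when 1 library was left out. For AVL9-KD at day 0 they numbered 31, with 12 and 11 to 36. For DENND5A-KD at 2D day 4 they numbered 20, with 34 by quantile normalization, 31 by median-ratio scaling, 12 for the groups alone and 8 to 22 when 1 library was left out. For DENND5A-KD at day 0 they numbered 16, with 25 by median-ratio scaling and 3 to 17. Calls over all genes were 2474, 2118, 1334 and 650 in the same order, and 454, 552 and 615 in the first 3 with their groups alone. In DENND5A-KD 2D day 7 against WT 2D day 11 they were 681, 1602 with the groups alone, 207 without line 1, 163 without line 2, and 332 and 314 without WT replicate 1 and 2. Leaving out line 1 gave 1181 in AVL9-KD at 2D day 4 and 736 at day 0, and WT replicate 3 and 4 gave 1292 and 1320 there. In DENND5A-KD 418 were called at 2D day 4 without line 1 (2069 by quantile normalization), and 281 and 200 at day 0 without line 1 and line 2. In 3D day 3 against 24 h 4054 were called, with 2329 without replicate 2 of 24 h and 2459 without replicate 1 of day 3. In 3D day 8 against 2D day 11 5431 were called, with 3607 without replicate 2 of day 8. The lowest list counts came without line 1, except that of DENND5A-KD at day 0, which came without line 2. The causes were not tested.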
